A study of Mus musculus with 12 samples.

Results

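The oxidative phosphorylation genes are those whose products build the respiratory chain and the ATP synthase of mitochondria. They were chosen by gene symbol: the mt-Nd, mt-Co, mt-Cytb and mt-Atp genes of mitochondrial DNA, and the Nduf, Sdh, Uqcr, Cox4 to Cox8 and Atp5 genes and Cyc1 of nuclear DNA, with pseudogenes left out. The rule found 114 of the 49164 genes with counts, of which 13 are mitochondrial-encoded and 101 nuclear-encoded. At least 1 count was present for 109 of them. A filter on low counts left 102 for testing, 12 mitochondrial-encoded and 90 nuclear-encoded, among 14231 genes tested. The RNA came from the tongue epithelium of Langerin-DTR mice, in 6 samples after injections of diphtheria toxin (DT) and 6 after injections of phosphate-buffered saline (PBS). Both groups carried the transgene, in which cells that express langerin make a receptor for the toxin, and the comparison is of epithelium in which those cells were killed with epithelium that kept them. Injections began at 2 weeks of age and went on 2 times a week into adulthood. The epithelium was lifted from the tongue with dispase, digested with collagenase and DNase, and its messenger RNA was sequenced in bulk with a stranded kit. A group without the transgene that received the toxin was not analysed here.

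Oxidative phosphorylation passes electrons from NADH and succinate through complexes I to IV to oxygen, and the protons pumped on the way drive ATP synthesis by complex V. Complexes I, III, IV and V are mosaics: a few core subunits are encoded by the circular mitochondrial genome and made by mitochondrial ribosomes, and the others are encoded in the nucleus and imported. Complex II, succinate dehydrogenase, is wholly nuclear-encoded and is also an enzyme of the tricarboxylic acid cycle. Mitochondrial DNA is transcribed as long precursors by a dedicated polymerase, so the levels of its messenger RNAs are set by machinery apart from that of nuclear genes.

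Total counts ran from 26181070 to 34333949 in DT samples and from 21226436 to 30282813 in PBS samples. Levels are given as CPM, the count of a gene per 1e+06 counts of a library scaled by the trimmed mean of M-values (TMM), and 3 counts in a sample, the floor of detection, corresponded to 0.0813 to 0.143 CPM. Cd207, which encodes langerin, had 0 to 2 counts per DT sample and 53 to 92 per PBS sample (edgeR quasi-likelihood test with Benjamini-Hochberg adjustment, adjusted p = 6.71e-09), which matched the group labels. Of 5 listed Langerhans cell markers, 4 had a negative log2 fold change, and Cd207 was the only 1 called by edgeR or DESeq2. The 5 together summed to 155 to 220 CPM in DT samples, against 154 to 216 CPM in PBS samples. The epithelial keratin Krt13 ran from 50634 to 64833 CPM in DT samples and from 58718 to 76085 CPM in PBS samples, and 8 of 8 listed epithelial markers passed the filter. Of these 8, 7 had a negative and 1 a positive log2 fold change, with a median of -0.09. Their sum was 123364 to 150379 CPM in DT samples, against 148053 to 173783 CPM in PBS samples. The same edgeR test gave every adjusted p below unless DESeq2 is named, with a threshold of 0.05. At that threshold it called 1.3% of all genes tested, 0.443% higher and 0.857% lower in DT.

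The mitochondrial-encoded genes were not counted equally well. Parts of the mitochondrial genome have been copied into nuclear chromosomes over evolution, and a read from such a stretch matches more than 1 place. In the GENCODE M21 transcripts of build GRCm38, 5 genes, mt-Co2, mt-Co3, mt-Atp6, mt-Nd3 and mt-Nd4l, had 0% to 2.0% of their 50-base windows free of an identical copy in transcripts of another gene. These 5 genes had 22 to 3353 counts over the 12 samples, 0.05% of all mitochondrial-encoded counts. The other 8 genes had 37.8% to 100% unique windows and 53967 to 2747192 counts. How reads with several matches were treated in counting was not given in the sources used here, and the part of the copies in the low counts was not tested. The windows below show the contrast. Bases 313 to 372 of the mt-Co2 transcript have 0 mismatches to the transcript of Gm13341 on chromosome 2, so a read from within this stretch fits both places. Bases 883 to 942 of mt-Nd5, a gene with 92.4% unique windows, differ from their nearest nuclear match, Gm4076 on chromosome 13, at 5 bases, in capitals in both.
mt-Co2: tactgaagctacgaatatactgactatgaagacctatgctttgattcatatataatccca
Gm13341: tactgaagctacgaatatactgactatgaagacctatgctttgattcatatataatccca
mt-Nd5: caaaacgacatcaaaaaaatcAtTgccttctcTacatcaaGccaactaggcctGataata
Gm4076: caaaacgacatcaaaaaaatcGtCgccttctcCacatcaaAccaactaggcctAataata
The copy Gm13341 itself had 218 counts over the DT samples and 189 over the PBS samples, against 522 counts of mt-Co2 over all 12 samples. Levels of the 5 poorly counted genes are therefore not read as amounts of RNA; 4 of them passed the filter and are among the 12 tested genes in the counts and medians below.

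**Figure D1:**
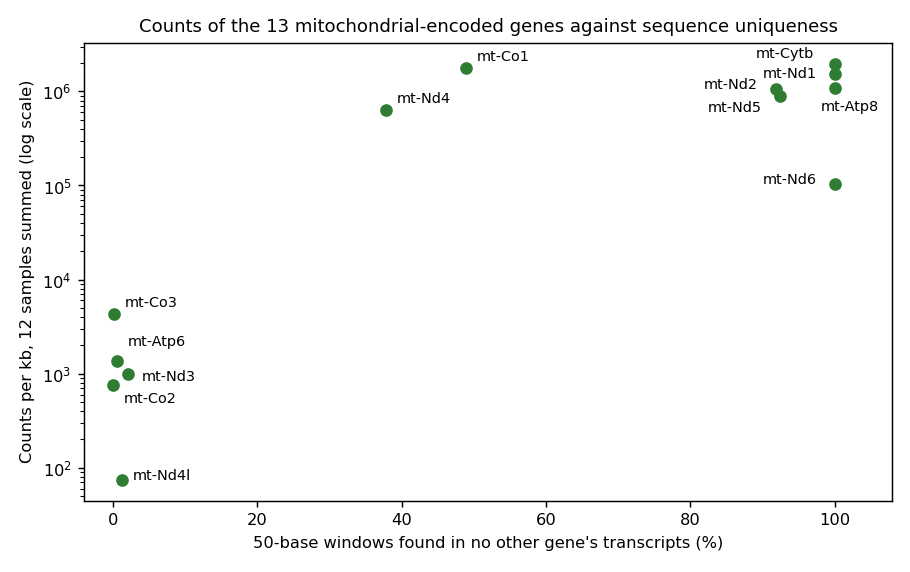
Counts per kilobase of exon, summed over 12 samples (vertical axis, log scale), against the percentage of 50-base windows found in no other gene's transcripts (horizontal axis), 1 point per mitochondrial-encoded gene. The 5 genes with at most 2.0% unique windows sit at the lower left, far below the other 8.

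Summed over the 13 genes, mitochondrial-encoded transcripts were lower on average in DT than in PBS samples, with a wide spread in PBS. The sum was 22801 CPM at the lowest, 28112 CPM at the median and 31594 CPM at the highest in DT samples, against 24437, 36770 and 45013 CPM in PBS samples. PBS 1 to PBS 4, at 35073 CPM or more, lay above every DT sample, whereas PBS 5 (24437 CPM) and PBS 6 (26819 CPM) lay inside the DT range. The groups therefore overlapped, and the means were 27309 ± 3684 CPM in DT and 34904 ± 7900 CPM in PBS (SD, n = 6 each). Within DT the sum was 28650 CPM or more in DT 1 to DT 3 and 27573 CPM or less in DT 4 to DT 6. As a share of all counts, the sum was 2.82% ± 0.292 in DT and 3.38% ± 0.845 in PBS (SD, n = 6 each). In bulk tissue, fewer cells of a type and less RNA per cell cannot be told apart.

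The nuclear-encoded sum did not show this difference. Over 101 genes it was 5487 CPM at the lowest, 5789 CPM at the median and 6557 CPM at the highest in DT samples, against 5564, 5885 and 6074 CPM in PBS samples. DT 3 was the highest of the 12 samples and DT 5 the lowest, so that the DT range enclosed the PBS range. The ratio of the mitochondrial-encoded to the nuclear-encoded sum, in which the scaling of the library cancels, was 3.96 at the lowest, 4.78 at the median and 5.37 at the highest in DT samples, against 4.02, 6.34 and 8.06 in PBS samples. The ratios of PBS 1 to PBS 4 were above those of all DT samples, and those of PBS 5 and PBS 6 were inside their range. On the log2 scale the mean ratio was 2.21 ± 0.16 in DT and 2.55 ± 0.37 in PBS (SD, n = 6 each), a difference of -0.34; a sum over chosen genes was given no test.

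**Figure D2:**
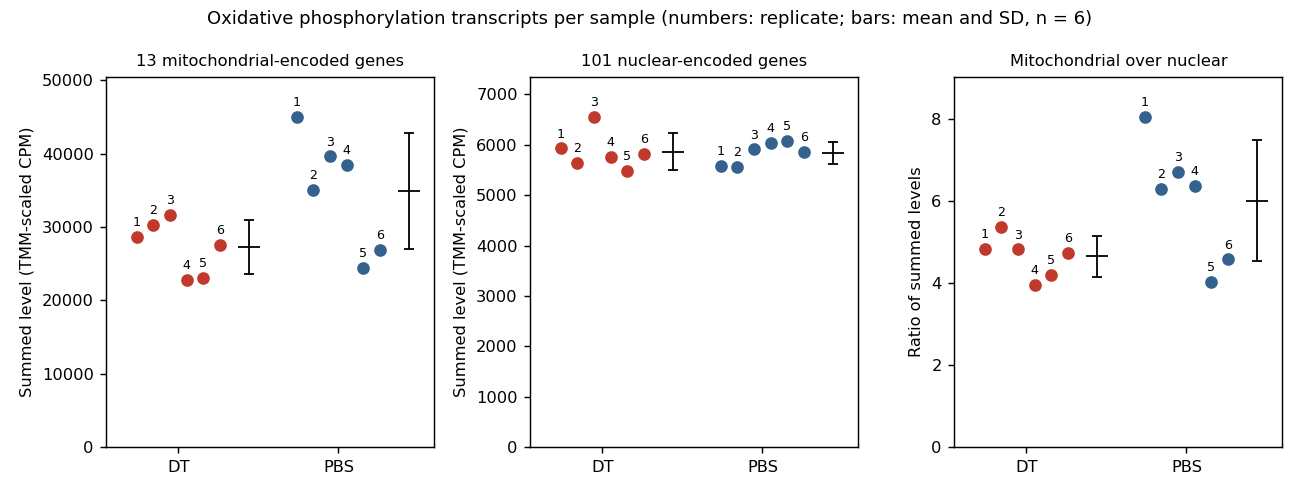
Summed TMM-scaled CPM of the mitochondrial-encoded genes (left) and of the nuclear-encoded genes (middle), and their ratio (right), for each DT and PBS sample; numbers name the replicate, bars are mean and SD (n = 6). PBS 1 to PBS 4 lie above all DT samples on the left and on the right, and PBS 5 and PBS 6 lie among the DT samples.

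Per length, the messenger RNAs of mitochondrial origin far exceeded the nuclear ones in both groups. Over the 6 mitochondrial-encoded genes with more than 90% unique windows, the median level was 2715 CPM per kilobase of exon in DT and 3762 in PBS, with mt-Cytb, the cytochrome b of complex III, at the top (5205 and 6678 CPM per kilobase). Over the 90 tested nuclear-encoded genes the median level was 27.4 CPM per kilobase in DT and 26.9 in PBS. By this measure the highest nuclear-encoded gene was Cox6b1, a subunit of complex IV, with 179 in DT and 195 in PBS. Exon length here joined all annotated exons of a gene, which can exceed the length of any 1 transcript. It was 4237 bases for Atp5b, whose longest transcript has 1916, and 708 for Cox6b1, whose longest has 618. The nuclear-encoded levels per kilobase and their ranking depend on this choice.

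Gene by gene, each of the 12 tested mitochondrial-encoded genes had a negative log2 fold change (DT over PBS), from -0.65 to -0.13 with a median of -0.44, against a median of 0.01 over all genes tested. Over the 6 genes with more than 90% unique windows the range was -0.54 to -0.36 and the median -0.45, and 5 had an unadjusted p under 0.05. Apart from mt-Nd6, which is encoded on the opposite strand, the 12 share precursor transcripts. All 12 share their samples and are not independent observations. None passed the edgeR test after adjustment, where the lowest adjusted p was 0.106; 8 of 12 had an unadjusted p under 0.05 with a negative fold change, against 7.94% of all genes. DESeq2 called 1, mt-Nd2, as lower; it called 4.1% of all genes, 2.71% lower and 1.38% higher in DT. In none of the 12 genes were the groups free of overlap, which was so for 1.37% of all genes in the direction lower in DT.

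Complex I takes electrons from NADH, and the mitochondrial genome encodes 7 subunits of its membrane arm. Among them mt-Nd2 had the smallest p. Its level was 2239 CPM at the lowest, 2785 at the median and 3033 at the highest in DT samples, against 2449, 4302 and 5178 CPM in PBS samples. PBS 1 to PBS 4 were above all DT samples, and PBS 5 and PBS 6 were within their range. In the fit mt-Nd2 had a log2 fold change of -0.54 ± 0.16 (SE; 95% interval -0.88 to -0.20; adjusted p = 0.106), with a mean of 2697 ± 330 CPM in DT and 3926 ± 1088 CPM in PBS (SD, n = 6 each). The gene passed the threshold with DESeq2 (adjusted p = 0.0213), without the filter on low counts (0.0374) and without PBS 5 (0.0361), and over all fits leaving out 1 sample its adjusted p ran from 0.0361 to 0.221.

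mt-Nd1 had 3129 CPM at the lowest, 3868 at the median and 4193 at the highest in DT samples, against 3395, 5468 and 6407 CPM in PBS samples (log2 fold change -0.44, adjusted p = 0.148). mt-Nd5 had 3393, 4261 and 4582 CPM in DT samples, against 3177, 6483 and 7792 CPM in PBS samples (-0.49, adjusted p = 0.183, and 0.0416 without PBS 5). In both genes PBS 1 to PBS 4 stood above the DT samples; the lowest of all 12 samples for mt-Nd5 was PBS 5. mt-Nd4 had 1894, 2319 and 2784 CPM in DT samples, against 2101, 3182 and 3832 CPM in PBS samples (-0.38, adjusted p = 0.204), with the same PBS samples on top. Only 37.8% of the windows of mt-Nd4 were unique. mt-Nd6, the gene encoded on the opposite strand of the mitochondrial genome, had 106, 123 and 192 CPM in DT samples, against 102, 194 and 281 CPM in PBS samples (-0.46, adjusted p = 0.340). PBS 1, PBS 3 and PBS 4 exceeded the DT samples here, DT 6 was the highest DT sample, and PBS 4 was the highest of all. mt-Nd3, one of the poorly counted genes, had 0.686 to 1.33 CPM in DT samples, against 0.779 to 1.66 CPM in PBS samples, and its log2 fold change of -0.14 (adjusted p = 0.817) turned to 0.02 without PBS 1. mt-Nd4l had 22 counts in all and was not tested.

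Complex III, the cytochrome bc1 complex, has a single mitochondrial-encoded subunit, mt-Cytb. It had 4785 CPM at the lowest, 6212 at the median and 7056 at the highest in DT samples, against 5438, 8137 and 9540 CPM in PBS samples. PBS 1 to PBS 4 again lay above all DT samples and PBS 5 and PBS 6 within their range, and the log2 fold change was -0.36 ± 0.14 (SE; adjusted p = 0.226). Complex V, the ATP synthase, has mt-Atp8 and mt-Atp6, whose reading frames overlap; 21.1% of the exon bases of mt-Atp8 are shared. mt-Atp8 had 505, 573 and 666 CPM in DT samples, against 470, 779 and 1142 CPM in PBS samples (-0.40, adjusted p = 0.251). The DT samples were again exceeded by PBS 1 to PBS 4, and PBS 5 was the lowest of the 12. mt-Atp6 was poorly counted, with 1.61 to 4.06 CPM in DT samples, against 1.76 to 4.97 CPM in PBS samples (-0.44, adjusted p = 0.443).

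Complex IV, cytochrome c oxidase, held both the largest and the smallest point estimate. The largest, mt-Co2, was at 0.865 to 1.95 CPM in DT samples, against 1.07 to 3.29 CPM in PBS samples (log2 fold change -0.65, adjusted p = 0.240), and mt-Co3 was at 4.95 to 10.8 CPM in DT samples, against 6.17 to 17.7 CPM in PBS samples (-0.51, adjusted p = 0.291); both belong to the poorly counted genes. The well-counted mt-Co1 had 6237 CPM at the lowest, 7859 at the median and 9262 at the highest in DT samples, against 7294, 8134 and 10895 CPM in PBS samples. Only 48.9% of its 50-base windows were unique, and the part of its copies in these counts was not tested. The groups overlapped widely, PBS 1 and PBS 3 alone lay above the DT range, with a log2 fold change of -0.13 ± 0.12 (SE; 95% interval -0.39 to 0.13; adjusted p = 0.662). mt-Co1 took up 25.4% to 30.5% of the mitochondrial-encoded counts of DT samples (median 29.3%), against 21.8% to 29.8% in PBS samples (median 23.9%). The 5 poorly counted genes, mt-Co2 and mt-Co3 among them, made up 0.05% of these counts over all samples. PBS 1 to PBS 4, the samples with the highest sums, had the 4 lowest shares of mt-Co1, all below the DT range, whereas PBS 5 and PBS 6 were within it.

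**Figure D3:**
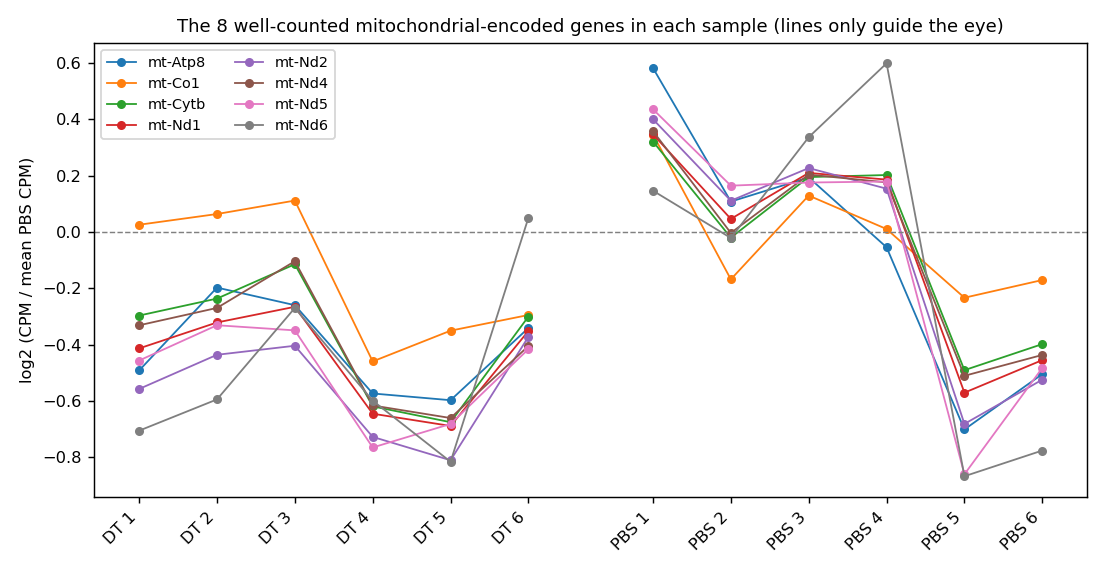
log2 of the CPM in each sample over the mean CPM of the 6 PBS samples, for the 8 mitochondrial-encoded genes with 53967 or more counts; DT samples are on the left and PBS samples on the right. PBS 1 to PBS 4 are high and PBS 5 and PBS 6 low in most of the genes, and mt-Co1 differs least between the groups.

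The position of PBS 5 and PBS 6 recurred across the mitochondrial genome. They were the 2 lowest PBS samples in 11 of 12 tested mitochondrial-encoded genes (91.7%), against 17.8% of the nuclear-encoded genes and 16.2% of all genes tested, a count made after their sums had been seen. PBS 5 and PBS 6 were the 2 highest PBS samples in 0% of the mitochondrial-encoded genes, 26.7% of the nuclear-encoded genes and 17% of all genes tested. The sum of 12 skeletal muscle markers was 10.1 to 49.7 CPM in DT samples, and in PBS samples 105 CPM in PBS 1, 77.2 in PBS 3, 32.6 in PBS 4, 30.0 in PBS 2, 11.9 in PBS 6 and 7.26 in PBS 5. This was the order of the mitochondrial-encoded sum within PBS, but not within DT: DT 6 had the highest muscle sum of the DT samples, above PBS 2 and PBS 4, and a mitochondrial-encoded sum of 27573 CPM, below those of DT 1, DT 2 and DT 3. All 10 tested muscle markers had a negative log2 fold change, with a median of -1.07. None was called by edgeR or DESeq2, and 1 had an unadjusted p under 0.05, against 7.94% of all genes in that direction. Acta1, muscle actin, was at 0.735 to 4.88 CPM in DT samples, against 0.535 to 11.6 CPM in PBS samples. The sum of 5 endothelial markers was 4.98 to 7.52 CPM in DT samples, against 9.46 to 11.2 CPM in PBS 1 to PBS 4, 4.93 in PBS 5 and 4.88 in PBS 6, so that the same PBS samples lay above all DT samples. Only Pecam1 (log2 fold change -0.67, unadjusted p = 0.0158, adjusted p = 0.203) and Vwf (0.29, adjusted p = 0.424) of these passed the filter, and neither was called by edgeR or DESeq2; Cdh5, Kdr and Emcn had 13, 7 and 3 counts over the DT samples and 8, 3 and 4 over the PBS samples. Of 5 erythrocyte markers edgeR called 3 and DESeq2 4 as lower in DT, against 0.857% and 2.71% of all genes. Their sum was 15.8 to 25.4 CPM in DT samples, against 20.5 to 51.5 CPM in PBS samples, but PBS 5 and PBS 6, at 33.5 and 50.4 CPM, were not low in them. The globin genes are near-identical copies and their separate counts are uncertain; leaving out DT 5 raised the adjusted p of Hba-a2 to 0.0508, and those of Hba-a1 and Hbb-bs passed 0.05 in 8 and 10 of 12 such fits. With the replicate number as a block none of the 3 was called (adjusted p = 0.0650 for Hba-a2, 0.124 for Hba-a1 and 0.119 for Hbb-bs). Total counts were lower on average in PBS, with PBS 1 the lowest at 21226436. The part of muscle, of endothelium, of blood, of epithelium and of depth in the mitochondrial-encoded values was not tested.

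Among the 90 tested nuclear-encoded genes, 51 had a positive and 39 a negative log2 fold change, with a median of 0.02. Of these values 84, or 93.3%, lay within 0.2 of 0, against 78.3% of all genes tested, a set not matched for level. edgeR called 1 of them, Sdhd, against 1.3% of all genes, and 3 had an unadjusted p under 0.05 with a positive fold change, against 7.43% of all genes, and 4 with a negative one, against 7.94%. The nuclear-encoded genes also varied less between PBS samples, with a median SD of log2 CPM of 0.150 in DT and 0.136 in PBS, than the 12 mitochondrial-encoded genes, with 0.234 in DT and 0.456 in PBS, or the 6 of them with more than 90% unique windows, with 0.181 in DT and 0.456 in PBS. DT 3 was the highest of the 12 samples in 50 of 90 genes. Copies in other transcripts touch these genes too, but 77 of 90 had at least 80% unique windows. The 11 nuclear-encoded genes without a test were Ndufa11b, Ndufb4c, Ndufs6b, Cox7b2 and a second entry for Atp5o, with 0 counts in all 12 samples, Ndufb11b, Cox6c2 and Cox8c, with 1 count each, and the muscle forms Cox6a2, Cox7a1 and Cox8b.

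**Figure D4:**
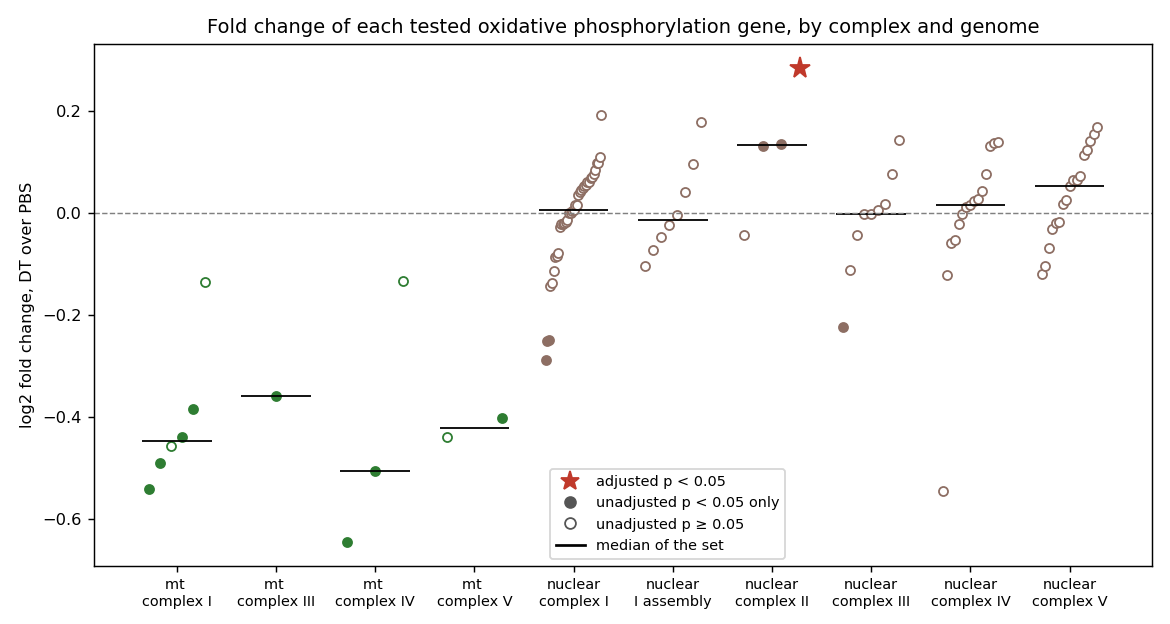
log2 fold change (DT over PBS) of each of the 102 tested genes, grouped by genome and complex; filled points have an unadjusted p under 0.05, the star marks the 1 gene with an adjusted p under 0.05 and lines are medians. The 12 mitochondrial-encoded genes all lie below 0, the nuclear-encoded genes spread around 0, and Sdhd stands highest.

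Complex II contained the single called gene. Sdhd, one of the 2 small membrane anchors that hold succinate dehydrogenase in the inner membrane and help to bind ubiquinone, had 23.2 CPM at the lowest, 24.8 at the median and 25.6 at the highest in DT samples, against 17.9, 19.9 and 22.7 CPM in PBS samples. Every DT sample was above every PBS sample, which was so in 0.836% of all genes. The mean was 24.7 ± 0.834 CPM in DT and 20.2 ± 1.70 CPM in PBS (SD, n = 6 each), and Sdhd rose with a log2 fold change of 0.29 ± 0.06 (SE; 95% interval 0.16 to 0.41; adjusted p = 0.0316), against 0.443% of all genes called higher. DESeq2 also called it (adjusted p = 0.0018). The call was lost, with an adjusted p of up to 0.0875, when DT 3, DT 4, DT 5, DT 6, PBS 1, PBS 2, PBS 3 or PBS 4 was left out, while the log2 fold change stayed between 0.26 and 0.32. It was also lost with the replicate number as a block (adjusted p = 0.149).

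The other anchor, Sdhc, had 45.3 CPM at the lowest, 48.1 at the median and 55.1 at the highest in DT samples, against 41.3, 45.3 and 47.8 CPM in PBS samples (log2 fold change 0.14, unadjusted p = 0.0381, adjusted p = 0.286). Sdhb, the iron-sulphur subunit, had 30.3, 32.9 and 35.6 CPM in DT samples, against 28.3, 29.9 and 31.7 CPM in PBS samples (0.13, unadjusted p = 0.0338, adjusted p = 0.268). In both the upper DT samples exceeded the PBS range and the lower ones overlapped it. Sdha, the flavoprotein that oxidises succinate, had 86.5, 91.7 and 101.7 CPM in DT samples, against 88.3, 95.2 and 103.5 CPM in PBS samples (-0.04, adjusted p = 0.784), with wide overlap. The 4 genes together summed to 186 to 210 CPM in DT samples, against 185 to 196 CPM in PBS samples. DT 1 (188 CPM) and DT 2 (186 CPM) lay inside the PBS range, and DT 3 to DT 6, at 201 CPM or more, lay above it. All 4 had at least 99.9% unique windows and no exon shared with a neighbour in GENCODE M21.

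**Figure D5:**
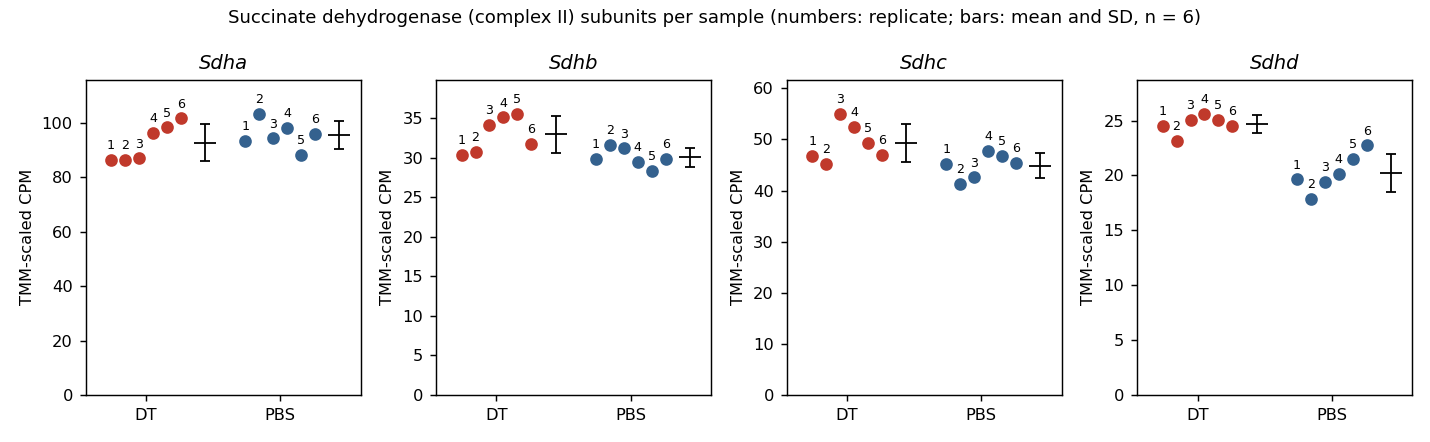
TMM-scaled CPM of the 4 complex II genes in each DT and PBS sample; numbers name the replicate, bars are mean and SD (n = 6). The DT samples of Sdhd, 23.2 to 25.6 CPM, lie above all its PBS samples, and the other 3 genes overlap between the groups.

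Nuclear respiratory chain genes are known for promoters that hold sites of the factors NRF1 and GABPA (also called NRF2), YY1 and the estrogen-related receptors. The RefSeq promoters of build GRCm38.p6, which is not the build of the counts, run from 250 bases before to 50 bases after a gene's start, and 74 of the 90 tested nuclear-encoded genes had 1 or more, 79 in all. Those of Sdhd (chr9:50603800-50604099, minus strand) and Sdhb (chr4:140961021-140961320, plus strand) are shown 5′ to 3′ on the strand of the gene, because these are the complex II genes with a positive fold change that have an entry. Capitals mark the letters of NRF1, GABPA or estrogen-related receptor motifs on either strand. In Sdhd these begin at bases 172 (NRF1), 205 (GABPA) and 287 (estrogen-related receptor) of the window, without overlap, and in Sdhb at base 257 (GABPA). The choice of promoters to show followed the fold changes. NRF1 letters were in 2 of the 3 complex II promoters, so the promoter that is not shown held them as well.
Sdhd: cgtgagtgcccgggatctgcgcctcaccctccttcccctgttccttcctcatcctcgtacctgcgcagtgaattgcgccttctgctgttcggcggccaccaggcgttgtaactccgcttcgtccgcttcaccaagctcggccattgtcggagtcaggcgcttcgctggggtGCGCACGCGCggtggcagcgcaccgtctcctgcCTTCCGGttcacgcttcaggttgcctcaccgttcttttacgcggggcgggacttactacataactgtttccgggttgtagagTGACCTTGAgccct
Sdhb: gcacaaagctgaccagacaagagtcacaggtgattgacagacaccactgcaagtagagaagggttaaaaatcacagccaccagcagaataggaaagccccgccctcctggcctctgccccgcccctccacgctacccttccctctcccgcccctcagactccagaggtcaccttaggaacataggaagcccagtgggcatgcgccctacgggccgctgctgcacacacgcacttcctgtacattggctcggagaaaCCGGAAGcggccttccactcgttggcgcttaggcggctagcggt
Searched on both strands, the NRF1 motif (GCGCA and GCGC with 1 base of any kind between them) was present in 25.3% of the promoters of the tested nuclear-encoded genes, against 4.60% of all 32851 promoters. The GABPA letters CCGGAAG were in 24.1% of the promoters of the tested genes, against 8.86% of all. The YY1 letters AAGATGGC were in 13.9% against 2.75%, and the estrogen-related receptor letters TCAAGGTCA in 2.53% against 0.423%. SP1 boxes (GGGCGG) were in 44.3% against 35.7%, and TATA boxes (TATAAA) in 8.86% against 13.6%. The set of all promoters also holds those of genes that did not pass the filter here, and promoters of tested genes alone were not compared. Overlapping promoters of 1 gene were each counted. A match of letters describes the sequence and was not tested as a site.

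In complex I, 37 nuclear-encoded subunits were tested, 21 with a positive and 16 with a negative log2 fold change and a median of 0.01. edgeR and DESeq2 called none; 3 had an unadjusted p under 0.05, all with a negative fold change. Ndufs5, an accessory subunit, had 37.6 CPM at the lowest, 40.3 at the median and 48.8 at the highest in DT samples, against 41.0, 49.7 and 65.1 CPM in PBS samples (log2 fold change -0.29, adjusted p = 0.206). PBS 5 and PBS 6 were the lowest PBS samples here too, inside the DT range, and 68.9% of the gene's windows were unique. The other 2 were the accessory subunits Ndufa12 (log2 fold change -0.25, adjusted p = 0.235) and Ndufa5 (-0.25, adjusted p = 0.242). The 7 nuclear-encoded core subunits, which hold the flavin and the iron-sulphur clusters or line the ubiquinone site, stayed within a narrow band, from -0.02 for Ndufs1 and Ndufv2 to 0.11 for Ndufs3 on the log2 scale, and each had an adjusted p of 0.500 or more. Ndufv1, which binds NADH, had 65.93 to 74.99 CPM in DT samples, against 63.28 to 73.11 CPM in PBS samples (0.04, 95% interval -0.07 to 0.16). Ndufs1, the largest core subunit of complex I, had 69.0 to 76.7 CPM in DT samples, against 69.0 to 78.3 CPM in PBS samples (-0.02, 95% interval -0.13 to 0.08). In both genes nearly all samples of the groups lay in a common range. The 8 Ndufaf genes, which encode assembly factors of complex I, had log2 fold changes from -0.10 to 0.18 with a median of -0.01, and 0 of 8 had an unadjusted p under 0.05 or was called by either tool.

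In complex III, 9 nuclear-encoded genes were tested, 4 with a positive and 5 with a negative log2 fold change and a median of 0.00, and edgeR and DESeq2 called none. Uqcrb, which binds ubiquinone, was the 1 gene with an unadjusted p under 0.05. It had 80.2 CPM at the lowest, 85.7 at the median and 105.9 at the highest in DT samples, against 85.2, 105.6 and 120.0 CPM in PBS samples (log2 fold change -0.22, adjusted p = 0.247), with PBS 5 and PBS 6 the lowest PBS samples. Uqcrh, the hinge protein beside cytochrome c1, had 106 to 139 CPM in DT samples, against 111 to 157 CPM in PBS samples (-0.11, adjusted p = 0.618). Uqcrc1, a core protein, had 145 to 162 CPM in DT samples, against 146 to 165 CPM in PBS samples (-0.00, 95% interval -0.11 to 0.11, adjusted p = 0.993). Cyc1, the cytochrome c1 that hands electrons to cytochrome c, had 59.1 to 75.5 CPM in DT samples, against 47.1 to 73.0 CPM in PBS samples (0.14, adjusted p = 0.500). Uqcrfs1, the Rieske iron-sulphur protein, had 58.8 to 70.9 CPM in DT samples, against 53.4 to 71.0 CPM in PBS samples (0.08, adjusted p = 0.705). In each of these 4 genes the groups overlapped over most of their range.

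Complex IV has alternative subunits that mark tissues. Of its nuclear-encoded genes 15 were tested, 9 with a positive and 6 with a negative log2 fold change and a median of 0.02; edgeR and DESeq2 called none, and 0 had an unadjusted p under 0.05. The widely used Cox4i1 was at 125 to 162 CPM in DT samples, against 123 to 141 CPM in PBS samples (log2 fold change 0.08, adjusted p = 0.615). Its alternative Cox4i2, known from lung and from low oxygen, was at 0.271 to 0.498 CPM in DT samples, against 0.238 to 0.803 CPM in PBS samples (-0.55, adjusted p = 0.375), so that this nuclear-encoded point estimate, the farthest from 0, belongs to 149 counts in all. The liver-type forms Cox6a1, Cox7a2 and Cox8a averaged 121 ± 20.0, 60.9 ± 7.09 and 93.1 ± 11.1 CPM in DT and 117 ± 19.0, 59.9 ± 2.0 and 84.5 ± 13.2 CPM in PBS (SD, n = 6 each), with log2 fold changes of 0.04, 0.02 and 0.14. Other subunits lay close to 0, among them Cox5a (-0.06, adjusted p = 0.773), Cox6c (-0.02, adjusted p = 0.923), Cox7b (-0.00, adjusted p = 0.996) and Cox7c (0.02, adjusted p = 0.953). The heart and muscle forms Cox6a2, Cox7a1 and Cox8b had 49, 43 and 15 counts over the DT samples and 89, 47 and 26 over the PBS samples, too few to be tested. The highest of them in any sample was Cox6a2 in PBS 1, at 1.95 CPM.

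Ndufa4, counted here with complex IV to which its protein belongs, was at 120 to 196 CPM in DT samples, against 131 to 175 CPM in PBS samples (log2 fold change 0.01, adjusted p = 0.976). Its relative Ndufa4l2, known as a target of hypoxia-inducible factor, averaged 95.2 ± 11.3 CPM in DT and 93.4 ± 12.7 CPM in PBS (SD, n = 6 each; 0.03, adjusted p = 0.934). Per kilobase of exon this was 86.9 CPM in DT and 85.3 in PBS, against 113 in DT and 112 in PBS for Ndufa4. Cox7a2l, which joins complexes III and IV into supercomplexes, averaged 100.8 ± 10.3 CPM in DT and 92.1 ± 9.75 CPM in PBS (0.13, adjusted p = 0.469). In none of these 3 genes were the groups free of overlap.

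In complex V, 17 nuclear-encoded genes were tested, 11 with a positive and 6 with a negative log2 fold change, from -0.12 to 0.17 with a median of 0.05; edgeR and DESeq2 called none, and 0 had an unadjusted p under 0.05. Atp5b, the catalytic beta subunit, had 532 CPM at the lowest, 552 at the median and 577 at the highest in DT samples, against 486, 504 and 593 CPM in PBS samples (0.06, adjusted p = 0.691). PBS 5 and PBS 6 were above all DT samples in this gene, the reverse of their place in the mitochondrial-encoded genes, and the other PBS samples were below. Atp5a1, the alpha subunit that alternates with beta in the catalytic head, had 443, 481 and 497 CPM in DT samples, against 432, 472 and 490 CPM in PBS samples (0.02, adjusted p = 0.922). The stalk subunits Atp5c1 and Atp5d had log2 fold changes of 0.05 and -0.02. Atp5g2, one of 3 genes for the c subunit of the rotor, had 33.4, 41.7 and 45.8 CPM in DT samples, against 30.7, 36.5 and 42.5 CPM in PBS samples (0.17, adjusted p = 0.370). Atp5g1 and Atp5g3, which encode the same mature c subunit, had 0.12 (adjusted p = 0.504) and 0.11 (adjusted p = 0.428), and in none of these 3 genes were the groups free of overlap. Atpif1, the inhibitor of the ATP synthase, falls outside the symbol rule and averaged 91.7 ± 8.43 CPM in DT and 94.8 ± 10.8 CPM in PBS (SD, n = 6 each; -0.05, adjusted p = 0.840).

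Genes around the respiratory chain were described from lists. The counts below stand beside shares of all genes tested, of which edgeR called 1.3% and DESeq2 4.1%. Of all genes tested, 7.43% had an unadjusted p under 0.05 with a positive fold change and 7.94% with a negative one. Of 15 tested genes for transcription and replication of mitochondrial DNA, edgeR and DESeq2 called none, 1 had an unadjusted p under 0.05, and the median log2 fold change was 0.01; Tfb1m, a ribosomal RNA methyltransferase, had 0.31 (adjusted p = 0.286) and the polymerase Polrmt -0.09 (adjusted p = 0.610). Of 17 genes for processing and decay of mitochondrial RNA, edgeR called none and DESeq2 called Rexo2, a nuclease that degrades short RNAs. In this list 4 had an unadjusted p under 0.05, 3 with a positive and 1 with a negative fold change. Rexo2 averaged 47.7 ± 4.68 CPM in DT and 57.8 ± 5.89 CPM in PBS (SD, n = 6 each; log2 fold change -0.28, adjusted p = 0.0899). Of 14 regulators of mitochondrial biogenesis, neither tool called any and 3 had an unadjusted p under 0.05, 1 with a positive and 2 with a negative fold change. Ppara, a receptor that drives fatty acid oxidation, had a log2 fold change of 0.38 (adjusted p = 0.129) and Hif1a -0.22 (adjusted p = 0.253). Of 77 mitochondrial ribosomal proteins edgeR called none and DESeq2 called 1, Mrpl42 (log2 fold change -0.21, adjusted p by edgeR = 0.126). Their median was -0.00, and 5 had an unadjusted p under 0.05, 2 with a positive and 3 with a negative fold change.

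Of 49 tested assembly factors outside the symbol rule, Foxred1, which helps to assemble complex I, rose in DT. It had 14.7 CPM at the lowest, 15.0 at the median and 16.6 at the highest in DT samples, against 12.1, 12.4 and 14.5 CPM in PBS samples. Every DT sample was above every PBS sample, which was so in 0.836% of all genes. Its log2 fold change was 0.27 ± 0.06 (SE, adjusted p = 0.0435), against 0.443% of all genes called higher. The call held in 1 of 12 fits leaving out a sample, that without PBS 5, with adjusted p from 0.0280 to 0.0930. Of 15 genes of the mitochondrial stress response and its proteases, Clpx, which unfolds proteins for the matrix protease ClpP, fell to 101 ± 3.83 CPM in DT, against 118 ± 7.20 CPM in PBS (SD, n = 6 each; log2 fold change -0.23, adjusted p = 0.0421). This call held without DT 6 and without PBS 6, and was lost in the other 10 such fits, with adjusted p of up to 0.112. DESeq2 also called Yme1l1 of this list, a protease of the inner membrane, as lower (123 ± 5.16 CPM in DT and 137 ± 5.49 CPM in PBS; log2 fold change -0.15, adjusted p by edgeR = 0.148). Both edgeR calls were also lost with the replicate block (adjusted p = 0.208 for Foxred1 and 0.216 for Clpx).

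Of 21 tested genes for ubiquinone, cytochrome c and electron transfer flavoprotein, edgeR called none, and DESeq2 called Coq8a, a kinase-like protein needed for ubiquinone synthesis. In this list 3 had an unadjusted p under 0.05, 1 with a positive and 2 with a negative fold change. Coq8a averaged 9.73 ± 1.51 CPM in DT and 7.15 ± 0.804 CPM in PBS (SD, n = 6 each; log2 fold change 0.45, adjusted p = 0.0511), and Cycs, cytochrome c itself, had -0.21 (adjusted p = 0.225). Neither tool called any of 14 genes of the tricarboxylic acid cycle (1 at an unadjusted p under 0.05, median log2 fold change -0.04), of 18 genes of glycolysis (0, median -0.04) or of 9 uncoupling and nucleotide carriers (1, median 0.05). Their genes of smallest p were Dld (-0.21, adjusted p = 0.257), Hk1 (-0.08, adjusted p = 0.470) and Ucp2 (-0.20, adjusted p = 0.181).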

How the data were processed

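RNA was measured in 12 samples, 6 DT and 6 PBS, grouped and numbered by their titles; the labels do not say that each came from a separate mouse, so p-values may measure only the spread between samples. The authors deposited raw counts (whole reads per gene) and normalized values, a signal that is each count over 1 factor per sample and was used for a check only. Cutadapt 2.10, TopHat2 2.1.1, HTSeq 2.01, DESeq2 1.36.0 and build GRCm39 are named, per the submitters' processing notes. Neither annotation nor strand setting was given in the sources used here, so reads of a gene and an antisense partner cannot be told apart. Of 55414 genes, 6250 had blank counts and were left out; 0 columns belonged to no sample. Between replicates the chi-square over its degrees of freedom was 6.87 to 62.0, so no library was a repeat of another. It was 8.69 to 10.2 among DT 1 to DT 3, 8.55 to 16.6 among DT 4 to DT 6, and 24.6 to 54.3 across these subsets. Among PBS 1 to PBS 4 it was 6.87 to 13.8. Against those samples it was 53.6 to 62.0 for PBS 5 and 18.3 to 28.2 for PBS 6. The part of these subsets in the results was not tested.

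The deposited counts were fitted with edgeR 4.0.16 (R 4.3.3): filterByExpr with a minimum count of 10, TMM scaling, and the two-sided quasi-likelihood F test of DT against PBS without covariates. Adjustment was by Benjamini and Hochberg's method over the 14231 genes tested, with a threshold of 0.05. Intervals are 95%, and the floor of 3 counts covers counting error only. Alternatives were DESeq2 1.42.0, other scalings and filters, a replicate block, leaving out each sample, and other ways to form the ratio of sums. Exon lengths, windows and neighbours came from GENCODE M21 (GRCm38), which held all 114 genes, and promoters from RefSeq (GRCm38.p6).

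The genes, the lists and the tests were chosen with earlier results of these data known, so no list was given a test. Genes were named by rule: every mitochondrial-encoded gene, every called gene, the nuclear-encoded gene of smallest p and of highest CPM in each of 5 complexes, the 3 largest changes at a mean of at least 1 CPM, set tissue isoforms and regulators, and in each list the called genes and up to 2 of smallest p; other genes with values were added, by role, after their values were seen. A gene that this rule names is not reported here.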

Additional observations from a re-analysis of the deposited data

Results flagged for a closer look

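Within groups of 6 samples, 4 of the 86 sets of values looked at had a sample standing apart from the rest by Dixon's test; chance gives about 1 in 20, here 4.3. The nuclear-encoded complex V genes summed to 2303 CPM in DT 3, and the nearest DT sample had 2100 CPM. mt-Co2 was at 1.95 CPM in DT 6, and the nearest DT sample was at 1.23 CPM. mt-Atp6 was at 4.06 CPM in DT 6, and the nearest was at 2.44 CPM. Ndufa4l2 was at 73.5 CPM in DT 2, below the nearest DT sample at 95.2 CPM.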

How the results depend on the processing

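The median log2 fold changes, the summed levels and their ratio kept their direction under the scalings, filters and tools tried, except that the nuclear-encoded values, close to 0, changed sign in some fits that left out a sample. With library size alone as the scaling, the median of all genes shifted to 0.11, the nuclear-encoded median to 0.12 and the nuclear-encoded summed difference to 0.11, while the mitochondrial-encoded median stayed 0.45 below that of all genes (-0.45). That setting called 553 genes, 87.5% of them higher, against 185 genes and 34.1%, and DESeq2 called 583. The count of oxidative phosphorylation genes called was 2 without a filter on low counts and 2 with DESeq2 (mt-Nd2 and Sdhd in each). Leaving out 1 sample at a time gave counts of 0 to 3, medians of -0.55 to -0.35 (mitochondrial-encoded) and -0.03 to 0.04 (nuclear-encoded), summed differences of -0.43 to -0.25 and -0.03 to 0.02, and log2 ratio differences of -0.45 to -0.24. The count of 3 came without PBS 5, with mt-Nd2, mt-Nd5 and Sdhd. The cause of these shifts was not tested. The log2 ratio difference was -0.41 without mt-Co1, mt-Co2, mt-Atp8, mt-Atp6 and mt-Co3, and -0.41 with the 6 genes of over 90% unique windows, an alternative chosen after seeing the data. With the replicate number as a block, 0 oxidative phosphorylation genes and 8 genes in all were called; same-numbered samples correlated from -0.41 to 0.12, over 0.1 in 1 of 6 pairs, and none of 6 correlated best with its own number, so the numbers were not taken to pair the samples. Depth limits mt-Nd4l, Cox4i2 and the muscle isoforms.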

Other observations

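Timm8b, the gene next to Sdhd, was looked at after the values of Sdhd were known. It averaged 11.8 ± 1.59 CPM in DT and 11.3 ± 0.919 CPM in PBS (SD, n = 6 each), with a log2 fold change of 0.07 (edgeR, adjusted p = 0.778). Other cell types that the preparation could hold were also counted from marker lists. Among 5 fibroblast markers and 5 macrophage markers edgeR called none. In each list 2 had an unadjusted p under 0.05, all with negative fold changes, against 7.94% of all genes in that direction. DESeq2 called Col3a1, a fibroblast collagen, which averaged 0.772 ± 0.315 CPM in DT and 1.44 ± 0.467 CPM in PBS. Of 8 epithelial markers edgeR called 1, Rptn, which fell to 17264 ± 1415 CPM in DT, against 24149 ± 2037 CPM in PBS (SD, n = 6 each; log2 fold change -0.48, adjusted p = 0.0164, and 0.114 with the replicate block). The adipocyte markers Adipoq and Cfd had 0 counts in all samples. Plin1 and Ucp1, also on that list, had some counts but too few to be tested. The list summed to 0.113 to 0.498 CPM in DT samples, against 0.238 to 0.439 CPM in PBS samples.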
